A study of Mus musculus with 6 samples.

Results

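Cytokine receptor chains through which precursor B cells receive growth signals were examined in mouse pre-B cells that carry BCR-ABL1, the oncogenic fusion tyrosine kinase found in Philadelphia chromosome-positive leukaemia. The 10 genes were Il2ra, Il2rb, Il2rg, Il7r, Crlf2, Csf2ra, Csf2rb, Il3ra, Flt3 and Kit, chosen by name. In the platform annotation 9 of them had a probe set with a single gene symbol, 1 probe set each, out of 19938 genes measured in this way. Il2rg, the common gamma chain, was not analysed here. Transformed precursor cells from Dusp6 KO mice (3 arrays) were compared with those from Dusp6 WT mice (3 arrays), all of a C57Bl/6-SV129j strain background. Total RNA was hybridised to Affymetrix arrays, and every array carried the same oncogene. The labels name no age, no culture condition and no part of Dusp6 that was deleted, and whether replicates were separate animals or cultures is not stated. The p-values therefore cover only the spread between these 6 arrays, and that spread may be technical.

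Most of these receptors are assembled from a private chain that recognises the cytokine and a shared chain that signals through JAK kinases and STAT transcription factors. Il2ra, Il2rb and the common gamma chain form the IL-2 receptor, Il7r pairs with the common gamma chain to bind IL-7 and with Crlf2 to bind TSLP, and Csf2ra and Il3ra pair with Csf2rb to bind GM-CSF and IL-3. Flt3 and Kit are receptor tyrosine kinases, bound by Flt3 ligand and stem cell factor. IL-7 receptor signalling is essential for early B cell development in the mouse, and BCR-ABL1 activates STAT5, a main effector of these receptors, without a cytokine. Dusp6 removes activating phosphates from ERK kinases, which the same receptors activate.

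The promoters of the 3 genes with the largest differences, and that of Il7r, are given first. Each is the 250 bases before the transcription start, from RefSeq on GRCm38.p6, with capitals marking matches to any of 5 searched motifs.
Il2ra promoter, chr2:11642542-11642791, plus strand: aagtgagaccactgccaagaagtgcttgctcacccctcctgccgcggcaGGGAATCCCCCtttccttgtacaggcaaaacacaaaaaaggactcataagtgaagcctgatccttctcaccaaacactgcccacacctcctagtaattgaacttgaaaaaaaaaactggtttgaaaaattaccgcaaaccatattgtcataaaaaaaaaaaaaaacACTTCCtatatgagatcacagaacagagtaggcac
Il7r promoter, chr15:9529877-9530126, minus strand: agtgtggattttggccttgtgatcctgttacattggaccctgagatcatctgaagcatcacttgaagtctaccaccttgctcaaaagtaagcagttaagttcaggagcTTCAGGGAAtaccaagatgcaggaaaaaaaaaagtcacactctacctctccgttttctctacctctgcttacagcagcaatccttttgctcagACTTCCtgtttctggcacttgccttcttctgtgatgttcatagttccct
Csf2ra promoter, chr19:61228419-61228668, minus strand: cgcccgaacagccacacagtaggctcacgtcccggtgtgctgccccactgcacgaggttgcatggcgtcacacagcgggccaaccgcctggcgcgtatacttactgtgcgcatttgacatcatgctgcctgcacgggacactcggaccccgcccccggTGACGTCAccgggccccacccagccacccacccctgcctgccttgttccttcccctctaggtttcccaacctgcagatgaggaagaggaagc
Flt3 promoter, chr5:147400490-147400739, minus strand: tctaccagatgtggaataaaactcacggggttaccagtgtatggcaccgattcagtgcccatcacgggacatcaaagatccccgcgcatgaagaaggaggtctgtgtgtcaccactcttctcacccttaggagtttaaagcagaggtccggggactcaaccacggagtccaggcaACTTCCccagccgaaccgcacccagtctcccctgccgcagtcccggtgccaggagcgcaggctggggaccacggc
The motifs, searched on both strands and chosen with these promoters in view, were TTCNNNGAA (bound by STAT factors), TGACGTCA (the cyclic AMP response element), GGAAGT (a core bound by ETS factors), TGANTCA (bound by AP-1) and the NF-kB consensus. The Il2ra window held the NF-kB consensus as 2 overlapping matches, the first beginning 201 bases before the start, and a GGAAGT core beginning 35 bases before it. The NF-kB consensus was present in 7.25% and GGAAGT in 19.7% of all 32817 promoter windows of this length. The Il7r window held TTCNNNGAA, found in 7.01% of windows, and GGAAGT. The Csf2ra window held TGACGTCA, found in 1.55% of windows, and the Flt3 window held GGAAGT. Of the 8 genes with a promoter in the RefSeq table (Il2rb and Csf2rb have none there), 4 held GGAAGT (Il2ra, Il7r, Flt3 and Il3ra), and TTCNNNGAA, TGACGTCA and the NF-kB consensus were each held by 1. TGANTCA, found in 6.75% of all windows, was in 0 of the 8. GGAAGT was held by genes that rose (Il2ra and Flt3) and by genes that fell (Il7r and Il3ra). Any relation of the motifs to the differences was not tested. A match describes letters and is not evidence of binding.

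The labelled cell type and genotype were checked first. Of 16 precursor B cell markers measured, 13 lay above the upper quartile of all probe sets (10.45 to 10.49 on the log2 scale) on every array, among them Igll1, Vpreb1, Cd79a, Pax5 and Ebf1, while Rag1, Rag2 and Spn did not. Of 21 myeloid and mast cell markers and 18 T and NK cell markers, 0 lay above that quartile on every array. Dusp6 had log2 signals of 9.04, 9.06 and 9.15 in KO arrays, against 12.36, 12.46 and 12.49 in WT arrays, and was thus lower in KO arrays. Arrays of 1 genotype correlated at 0.996 to 0.998 and arrays of different genotypes at 0.987 to 0.989 over all probe sets. Because the arrays measure bulk RNA, a change in the proportion of cells that carry a transcript cannot be told apart from a change in its amount per cell.

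Of the 9 receptor genes measured, 3 were higher in Dusp6 KO cells (Il2ra, Flt3 and Csf2rb), 3 were lower (Csf2ra, Il7r and Il3ra) and 3 did not pass the test (Il2rb, Crlf2 and Kit). The threshold was a limma p under 0.05 after Benjamini-Hochberg adjustment over all genes. Over all genes 19.8% were called, 9.66% as higher and 10.2% as lower. The KO and WT values did not overlap in the same 6 receptor genes, against 35.7% of all genes. Il2ra was the only receptor gene past 2-fold, a mark that 1.29% of all genes reached with a call. The median log2 difference of the 9 genes, KO minus WT, was 0.021, against 0.0018 for all genes. The genes were listed with earlier results of these arrays known, so their share of calls is a description.

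**Figure D1:**
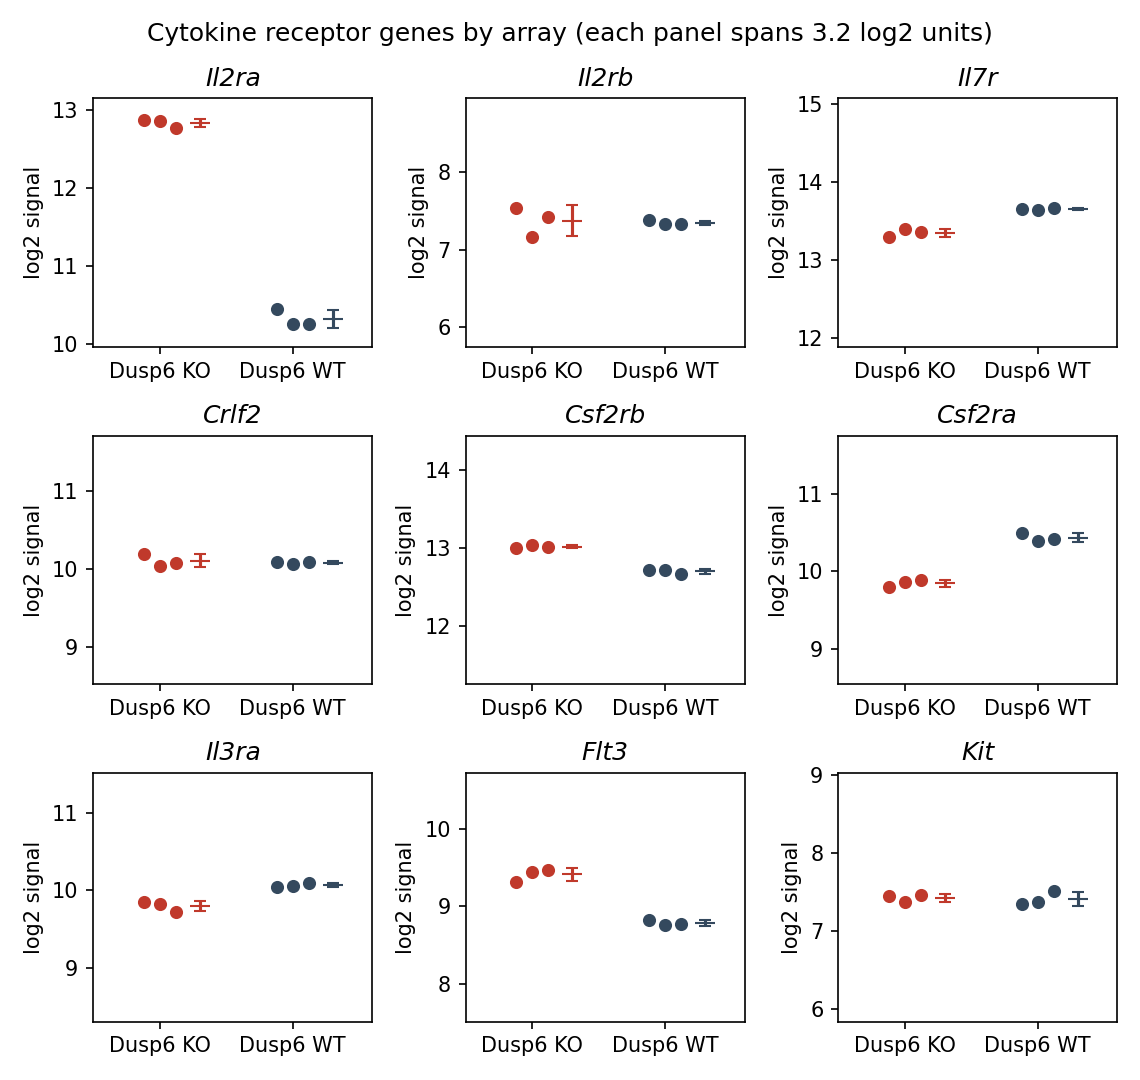
Log2 signal (vertical axis) of 9 cytokine receptor genes on each of the 3 Dusp6 KO arrays (red, left) and 3 Dusp6 WT arrays (dark blue, right), with the mean and SD as a bar beside the points. Every panel spans the same range of the log2 scale; the KO and WT points separate in Il2ra, Il7r, Csf2rb, Csf2ra, Il3ra and Flt3 and overlap in Il2rb, Crlf2 and Kit.

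Il2ra encodes the alpha chain of the IL-2 receptor, which raises the affinity for IL-2 and does not signal by itself. Its log2 signal was 12.87, 12.86 and 12.78 in KO arrays, against 10.45, 10.25 and 10.26 in WT arrays. Every KO array was above every WT array, and the gap between the groups was many times the spread within either. The difference was 2.52 ± 0.061 (SE), or 5.72-fold (limma adjusted p = 6.2e-09), the 33rd largest of 19938 genes in absolute size. The transcript stood between the 68.5th percentile of genes on its lowest array, a WT array, and the 96.5th on its highest, a KO array.

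Il2rb encodes the beta chain, which signals for IL-2 and IL-15. Its log2 signal was 7.54, 7.16 and 7.42 in KO arrays, against 7.38, 7.33 and 7.33 in WT arrays. The groups overlapped, with the lowest and the highest value both among the KO arrays. The difference of 0.028 had a 95% interval of −0.16 to 0.22 (limma adjusted p = 0.87). The KO arrays spread more than the WT arrays, with an SD of 0.20 against 0.027 (n = 3 each). All values lay between the 20.0th and 26.0th percentile of genes, where no test against background was made, so a low transcript level and an unspecific signal cannot be told apart for this gene.

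Il7r, the alpha chain of the IL-7 and TSLP receptors, lay between the 98.2nd and 99.2nd percentile of genes on all arrays. Its log2 signal was 13.29, 13.39 and 13.36 in KO arrays, against 13.66, 13.64 and 13.67 in WT arrays. Every KO array was below every WT array, and the WT values were nearly identical. The decrease was small, with a log2 difference of −0.31 ± 0.043 (SE; limma adjusted p = 0.00084), or 1.24-fold. Crlf2, which joins Il7r to form the TSLP receptor, had log2 signals of 10.20, 10.04 and 10.08 in KO arrays, against 10.09, 10.06 and 10.09 in WT arrays. The groups overlapped, and the difference of 0.021 had a 95% interval of −0.092 to 0.13 (limma adjusted p = 0.83).

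Csf2ra encodes the GM-CSF-binding alpha chain. Its log2 signal was 9.80, 9.86 and 9.89 in KO arrays, against 10.50, 10.39 and 10.42 in WT arrays. The KO values lay wholly below the WT values, with a difference of −0.59 ± 0.047 (SE; limma adjusted p = 1.8e-05). Il3ra, the IL-3-binding alpha chain, had log2 signals of 9.86, 9.83 and 9.72 in KO arrays, against 10.05, 10.06 and 10.10 in WT arrays. It was also lower on every KO array, with the smallest difference among the called receptor genes (−0.27 ± 0.048, SE; limma adjusted p = 0.0034).

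Csf2rb, the signalling chain that both of these alpha chains use, went the other way. Its log2 signal was 13.00, 13.04 and 13.02 in KO arrays, against 12.72, 12.72 and 12.66 in WT arrays. Every KO array was above every WT array, with a difference of 0.32 ± 0.041 (SE; limma adjusted p = 0.00047), or 1.24-fold. The mouse has a closely similar gene, Csf2rb2, whose product serves IL-3 only and which is the neighbouring gene in the RefSeq order. Csf2rb2 had a probe set of its own that averaged 11.71 ± 0.070 in KO arrays and 11.04 ± 0.099 in WT arrays (SD, n = 3 each), a difference of 0.67 ± 0.060 (SE; limma adjusted p = 4.2e-05). Probes of these similar genes may read both transcripts, so how the increase divides between them is uncertain.

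Flt3, the receptor tyrosine kinase of early lymphoid progenitors, is normally switched off as cells commit to the B lineage. Its log2 signal was 9.32, 9.45 and 9.47 in KO arrays, against 8.83, 8.76 and 8.78 in WT arrays. The groups did not overlap, and the difference of 0.62 ± 0.051 (SE), or 1.54-fold, was the next largest among the receptors after Il2ra (limma adjusted p = 2.3e-05). Kit, the stem cell factor receptor, had log2 signals of 7.45, 7.37 and 7.46 in KO arrays, against 7.35, 7.37 and 7.52 in WT arrays. These overlapped, lay between the 23.4th and 26.6th percentile of genes, and differed by 0.016 with a 95% interval of −0.11 to 0.14 (limma adjusted p = 0.89).

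**Figure D2:**
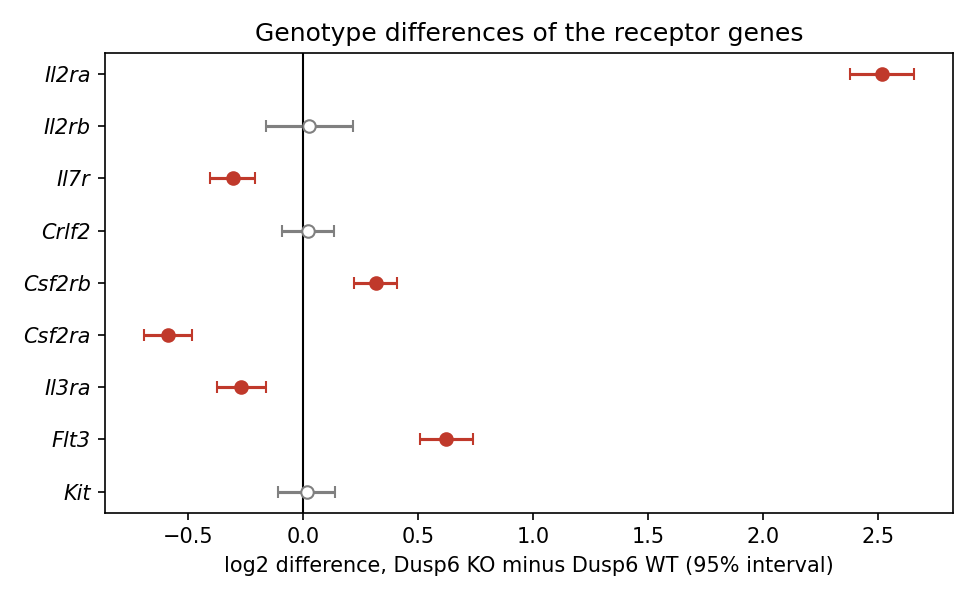
Log2 difference between Dusp6 KO and Dusp6 WT arrays (horizontal axis, KO minus WT) of 9 receptor genes, with limma 95% intervals as bars; filled red points passed an adjusted p under 0.05 and open grey points did not. Il2ra lies at 2.52, the other called genes lie between −0.59 and 0.62, and the intervals of Il2rb, Crlf2 and Kit include 0.

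Within every array, the log2 ratio of 1 receptor gene to another was taken and compared between genotypes in 5 pairs, 4 of chains that share a receptor and the pair of receptor tyrosine kinases. The ratio of Csf2ra to Csf2rb differed by −0.90 (KO minus WT) and that of Il3ra to Csf2rb by −0.58, and in both the private and the shared chain had each passed the test on its own, in opposite directions. The ratio of Il7r to Crlf2 differed by −0.33. The ratios of Il2ra to Il2rb (2.49) and of Flt3 to Kit (0.61) were close to the differences of Il2ra and Flt3 alone. Il2rb and Kit were dim and did not pass, so these ratios say nothing further about those genes. KO and WT ratios did not overlap in the 5 pairs, but each pair holds a gene whose own values did not overlap, as in 35.7% of all genes, so this count adds little to the calls above. Each gave an exact two-sided permutation p of 0.1, which is the smallest that 3 arrays against 3 allow (0.1 after Benjamini-Hochberg adjustment over the 5 pairs), so none passes a threshold of 0.05. The planned pairs with Il2rg were not run.

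The ligands of these receptors were mostly dim. Of 12 ligand genes, 9 lay below the lower quartile of probe sets (7.12 to 7.16) on every array, including Il2, Il7, Tslp, Il3, Csf2 and Kitl. Flt3l, the ligand of Flt3, rose and averaged 9.50 ± 0.027 in KO arrays and 8.92 ± 0.085 in WT arrays (SD, n = 3 each), a difference of 0.58 (limma adjusted p = 3.5e-05). Receptor and ligand transcripts of this pair were thus both higher on all 3 KO arrays than on any WT array. KO and WT values did not overlap in 35.7% of all genes, and a link between receptor and ligand was not tested. Il5, an eosinophil and B cell cytokine gene, was called lower by 0.14 among the dim genes (limma adjusted p = 0.036), but lost its call in 9 of 12 alternatives, among them leaving out any single array (adjusted p up to 0.14). The other 10 ligands did not pass, where 19.8% of all genes were called, and the list's median difference was 0.0021.

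Among 22 other type I cytokine receptor chains measured, 5 rose and 1 fell, with a median difference of 0.055. For both lists in this paragraph, the share over all genes was 19.8% called, 9.66% as higher and 10.2% as lower. Il4ra, a chain of the IL-4 and IL-13 receptors, averaged 10.38 ± 0.036 in KO arrays and 9.49 ± 0.033 in WT arrays (SD, n = 3 each), a difference of 0.89 (limma adjusted p = 5.7e-07). Il21r, another partner of the common gamma chain, rose by 0.42. Lifr, a receptor chain for leukaemia inhibitory factor, rose by 0.67 but was dim, between the 17.5th and 33.2nd percentile of genes. Csf2rb2 is described above. Of 18 other receptor tyrosine kinases measured, 1 rose and 4 fell: Ret rose by 1.13, while the ephrin receptor gene Epha2 fell by 1.10, the insulin-like growth factor receptor gene Igf1r by 0.72, the leukocyte kinase gene Ltk by 0.59 and Tyro3 by 0.32. Their median difference was 0.00051.

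**Figure D3:**
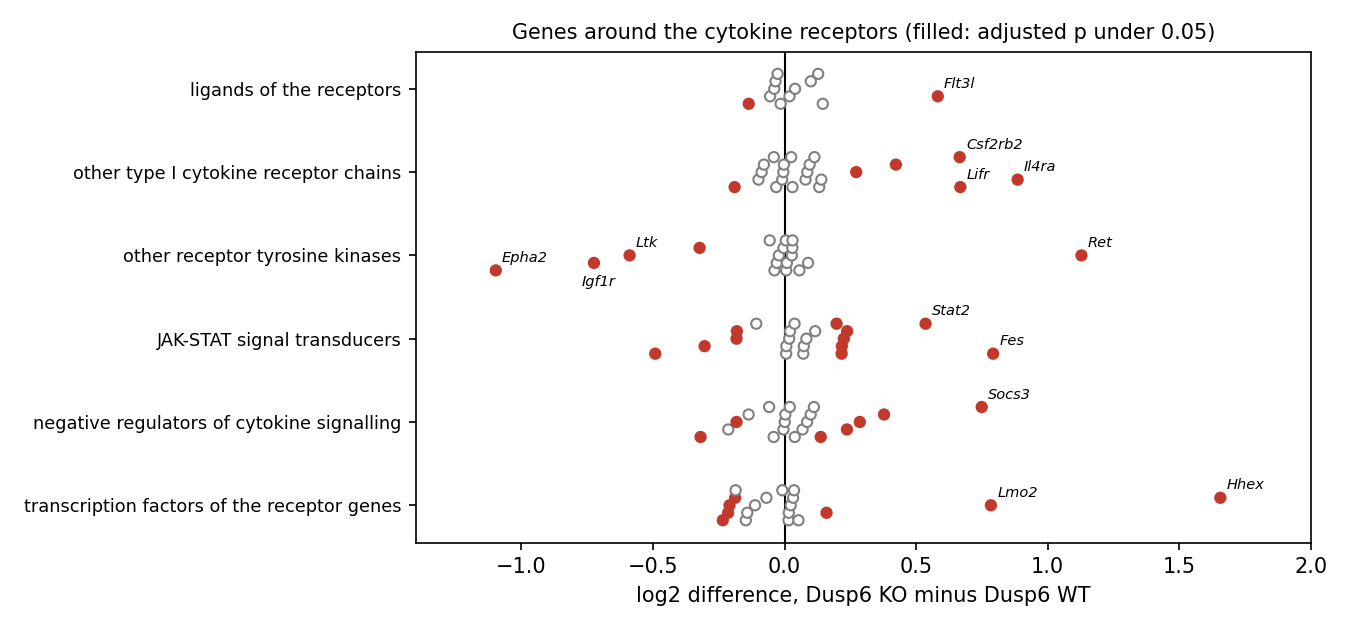
Log2 difference between Dusp6 KO and Dusp6 WT arrays (horizontal axis, KO minus WT) of each measured gene in 6 lists around the receptors (rows, points staggered vertically for legibility); filled red points passed an adjusted p under 0.05, and those beyond 0.5 in absolute size are named. In each of the 6 lists the gene with the largest absolute difference rose: Flt3l (0.58), Il4ra (0.89), Ret (1.13), Fes (0.79), Socs3 (0.75) and Hhex (1.66).

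Downstream of the receptors, 11 of 21 measured JAK-STAT signal transducers were called, 7 higher and 4 lower, with a median difference of 0.071. Over all genes 19.8% were called. The list was chosen with earlier results of these data known, so its count is a description. Fes, a cytoplasmic tyrosine kinase that acts after GM-CSF and IL-3 receptors, rose by 0.79, and Stat2, a transducer of interferon signals, rose by 0.54. Gab1, a docking adaptor, fell by 0.49. Jak2, the kinase bound to Csf2rb, fell by 0.30 (limma adjusted p = 0.0092), in the direction opposite to Csf2rb. The STAT5 genes, named after their values were seen, both rose: Stat5a averaged 11.02 ± 0.059 in KO arrays and 10.80 ± 0.043 in WT arrays, and Stat5b averaged 11.29 ± 0.037 in KO arrays and 11.06 ± 0.069 in WT arrays (SD, n = 3 each; limma adjusted p = 0.01 and 0.0071). Jak3 and Lyn were not analysed here.

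Of 20 negative regulators of cytokine signalling, 5 rose and 2 fell, where 19.8% of all genes were called. Their median difference was 0.030. Socs3, a feedback inhibitor induced by STAT factors, averaged 10.57 ± 0.15 in KO arrays and 9.82 ± 0.085 in WT arrays (SD, n = 3 each), a difference of 0.75 (limma adjusted p = 8.1e-05). With the mean of its 2 probe sets in place of the brighter one, the difference was 0.44 (limma adjusted p = 0.00054). Cish, a feedback inhibitor that is a target of STAT5, rose by 0.38, and Ptpn1, a tyrosine phosphatase that acts on JAK kinases, rose by 0.29. Cblb, a ubiquitin ligase for activated receptors, fell by 0.32.

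Among 19 transcription factors of the early haematopoietic and B lineages that include known regulators of receptor genes, 3 rose and 4 fell. Over all genes 19.8% were called. Hhex, a homeobox gene needed in early lymphoid development, rose by 1.66, and Lmo2, a cofactor of progenitor cells, rose by 0.78. Bcl6 fell by 0.23 and Etv6 by 0.21, where Etv6 lost its call without WT replicate 1 (adjusted p = 0.052) or KO replicate 3 (adjusted p = 0.0504). Foxo1 fell by 0.21 (limma adjusted p = 0.0094) and Mitf, a dim gene, by 0.19. Spi1 rose by 0.16 (limma adjusted p = 0.039), but lost its call with arrays centred on their medians.

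Markers of other cell types and stages that can carry these receptors were set beside them, and their part in the results was not tested. Counts of calls stand beside the 19.8% of all genes called. Of 16 precursor B cell markers, 4 rose and 5 fell. Dntt, the polymerase that adds bases at immunoglobulin junctions, fell by 1.42 and Rag2 by 0.43. The surrogate light chain genes Vpreb1 and Vpreb2 fell by 0.27 and 0.22, and Blnk by 0.23. The progenitor surface gene Cd93 rose by 0.25, Bst1 by 0.24, and Rag1 and Ptprc by 0.20 each. Vpreb1 lost its call without KO replicate 2 (adjusted p = 0.061), without KO replicate 3 (adjusted p = 0.055), and with every probe set tested (adjusted p = 0.061). The mean log2 signal over these markers was 12.38 to 12.39 in KO arrays and 12.49 to 12.52 in WT arrays, while the median difference of the list was −0.019. Of 8 mature B cell markers measured, 5 rose and 1 fell, led by Cxcr5 (1.45), Cd22 (1.33), Ccr7 (0.94) and Ms4a1 (0.85). Their mean was 8.97 to 9.05 in KO arrays and 8.40 to 8.55 in WT arrays, with a median difference of 0.49. Ms4a1 was dim, between the 9.48th and 22.3rd percentile of genes, where no test against background was made. Cr2 fell by 0.25, and Fcer2a (−0.072) and Tnfrsf13c (0.061) did not pass. Activated mature B cells also carry Il2ra.

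Il2ra, examined here as a receptor chain of precursor B cells, is also a marker of regulatory and activated T cells. Of 18 T and NK cell markers, 3 rose and 1 fell, with means of 7.72 to 7.80 in KO arrays and 7.62 to 7.64 in WT arrays. The median difference of these markers was 0.041. For this and the other lists of this paragraph, the share over all genes was 19.8% called. Ctla4 rose by 1.06, Klrd1 by 0.61 and Cd5 by 0.26, and Zap70 fell by 0.15. Klrd1 was dim, between the 16.5th and 30.0th percentile of genes. Zap70 lost its call in 8 of 13 alternatives, among them leaving out any single array except KO replicate 1 (adjusted p up to 0.15). The other 14 did not pass, among them the regulatory T cell gene Foxp3 (0.018), Cd4 (−0.042), Cd3d (−0.11) and Cd3e (0.11). Cd3e, a T cell receptor chain gene, averaged 8.55 ± 0.065 in KO arrays and 8.44 ± 0.047 in WT arrays (limma adjusted p = 0.15). Cd3g lay below the lower quartile on every array. Of 21 myeloid and mast cell markers, 1 rose (Lyz2, 0.70) and 0 fell by limma (2 and 0 at an unadjusted p under 0.05), with means of 7.43 to 7.50 in KO arrays and 7.40 to 7.44 in WT arrays. The mast cell genes Fcer1a, Ms4a2, Cpa3 and Mcpt4 lay below the lower quartile on every array. Of 11 stem and early progenitor markers, 0 rose and 2 fell by limma, Slamf1 by 0.76 and Meis1 by 0.54 (0 and 2 at an unadjusted p under 0.05), with means of 7.86 to 7.94 in KO arrays and 8.00 to 8.02 in WT arrays. The other 9 did not pass, and the median difference was 0.016.

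The 5 genes whose signal followed that of Il2ra most closely over the 6 arrays were Cd74, Lta, Apobec3, Mapkapk3 and Slc14a1. They were taken from 257 other genes with an absolute log2 difference of at least 1. Pearson correlations were 0.9993 to 0.9996. The 6 arrays fall into 2 genotypes, so such values reflect mainly the shared genotype difference, and all 5 genes were higher in KO arrays, by 1.12 to 2.48. Cd74, the invariant chain of MHC class II, had the difference nearest in size to that of Il2ra (2.48 ± 0.053, SE).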

How the data were processed

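Total RNA of 6 mouse samples was measured on Affymetrix arrays. The authors deposited log2 signals, 1 per probe set and array, made with RMA and Partek 6.5 per the submitters' processing notes. Background setting and summarisation level: not given in the sources used here. That the scale is log2 follows from the range of 3.23 to 14.8, and the values were tested as deposited. The platform annotation gave 1 gene symbol for 21789 of 35556 probe sets, several for 1621 and none for 12146. For each gene the probe set with the highest mean was kept, giving 19938 genes. The Entrez identifiers of all 9 receptor genes matched RefSeq.

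KO and WT arrays were compared by the lmFit and eBayes functions of limma 3.58.1 (R 4.3.3), with genotype as sole factor and Benjamini-Hochberg adjustment over all genes, and the procedure was tested on simulated data. The number of arrays limits the precision, and the median SE of a difference was 0.051. Named genes were Dusp6, the receptor genes, the 4 most different called genes per list (where none passed, the 2 with the smallest p), and the 5 genes most like Il2ra. Other genes, such as dim ligands, Cd3 genes, Cd4, Foxp3, Tyro3, Rag1, Foxo1 and Spi1, were named after their values were seen. The receptor genes and lists were chosen with earlier results of these data known. The labels do not say that replicate numbers pair the arrays, so no pairing was used. Deviations of same-numbered arrays correlated at −0.12 to 0.053, which cannot settle whether they were paired. The 14 alternatives changed normalization, filters, probe set choice, test options, the block and the arrays included.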

Additional observations from a re-analysis of the deposited data

How the results depend on the processing

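All 14 alternatives left 6 of the 9 receptor genes called, 3 higher and 3 lower. Il2ra ranged from 2.48 to 2.58, Flt3 from 0.59 to 0.67, Csf2rb from 0.30 to 0.33, Il3ra from −0.29 to −0.23, Il7r from −0.33 to −0.28 and Csf2ra from −0.61 to −0.56, and each stayed under an adjusted p of 0.05 (limma; highest 0.017, for Il3ra with every probe set tested). The 3 uncalled genes changed sign when single arrays were left out, over ranges of −0.017 to 0.068 for Kit, −0.056 to 0.14 for Il2rb and −0.025 to 0.056 for Crlf2. Kit was at −0.017 without WT replicate 1, −0.0042 without WT replicate 2 and −0.0015 without KO replicate 3, and Il2rb was at −0.056 and Crlf2 at −0.025 without KO replicate 1. Il2rb and Kit fell below both filters on dim genes and had no value there. Genes called over the whole array numbered 3003 to 4600. With arrays centred on their medians, 1734 genes were higher and 2229 lower. With replicate number as a block, a pairing that the labels do not state, 3445 genes were called and the 6 receptor genes stayed called. In deviations from the group mean, 1 of 3 KO arrays correlated best with its own number. Of the other named genes followed individually, Socs3 ranged from 0.44 to 0.79. Il5 lost its call in 9 of 12 alternatives, Zap70 in 8 of 13, Vpreb1 in 3 of 14 and Etv6 in 2 of 14. Some genes named after their values were seen, such as Rag1, Foxo1 and Spi1, were not followed in this way. Calls in the other lists numbered 47 to 65, against 60 as reported. The 5 gene pairs stayed without overlap in the 7 settings run. Signal over background could not be tested, which limits statements on dim genes, among them Il2rb, Kit, Ms4a1, Lifr, Klrd1, Meis1 and the dim ligands. The same limit holds where 1 genotype was dim. Cxcr5 lay between the 24.9th and 31.2nd percentile in WT arrays. In KO arrays Igf1r lay between the 24.3rd and 27.5th and Slamf1 between the 23.9th and 29.2nd.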
